A study of Mus musculus with 6 samples.

Results

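Scavenger receptors are surface receptors of macrophages and other cells that bind modified lipoproteins, dying cells, microbes and protein aggregates, amyloid-β among them, and carry many of these ligands into the cell. The members of the family share ligands rather than sequence, and they are sorted into classes by their domains. In marrow they are best known from macrophages, whereas Lrp1, the large endocytic receptor of the LDL receptor family, is made by many cell types, osteoblasts included. The 7 genes described here, Msr1, Marco, Colec12, Scarb1, Olr1, Lrp1 and Cd5l, were selected by gene symbol from the 17469 genes of the table. Cd5l encodes a secreted protein of the scavenger receptor cysteine-rich family rather than a membrane receptor.

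The libraries came from bone marrow stromal cells (BMSCs) of untreated 6-month-old mice, 3 libraries per genotype. Control mice (Ocn-Cre;Ai9) carried the osteocalcin-driven Cre and the Ai9 reporter, which turns on the red protein tdTomato after Cre has acted. TgAPPsweOCN mice (TgAPPswe;Ocn-Cre;Ai9) carried the same alleles plus a human APP transgene with the Swedish mutation, which Cre switches on by removing a stop cassette. Attached marrow cells were cultured, and the tdTomato+ cells, which the study calls OB (osteoblast) progenitors, were sorted by FACS and sequenced. Ocn-Cre also acts in some neurons, so the transgene need not have been limited to the osteoblast lineage in these mice. The number of mice behind each library is not given in the sources used here, and p-values therefore measure the spread between these libraries, which may be technical. Totals ran from 19340810 to 19801060 estimated counts in control and from 21677461 to 22037840 in TgAPPsweOCN libraries, so 3 counts, the floor used for a gene not detected, corresponded to 0.136 to 0.155 CPM (counts scaled to library depth). App, the gene of the transgenic protein, has 1 entry in the table, so mouse and human transcripts cannot be told apart in it. It held 281.1, 274.95 and 280.92 FPKM (fragments per kilobase of gene, scaled to library depth) in control and 325.21, 331.95 and 332.86 in TgAPPsweOCN libraries (log2 fold change 0.45, edgeR adjusted p = 7.87e-05).

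The labelled cell type was set against marker genes. Macrophage markers were abundant in both genotypes: the FPKM values of 15 such genes summed to between 23398 and 25084 in control and between 18506 and 22174 in TgAPPsweOCN libraries, with Lyz2 (lysozyme) highest and Mertk (an engulfment receptor) lowest by mean in control. The sums for 15 stromal and osteoblast genes were 230 to 262 and 174 to 233, with Sparc the highest by its mean in control. Bglap, which encodes osteocalcin, the protein whose promoter drives the Cre, lay between 0 and 1.25 FPKM in all 6 libraries and Dmp1 (an osteocyte matrix gene) between 0 and 0.05, too few counts to test. Bglap counts carried decimals in 4 libraries, so part of its reads was shared with other genes and its level is uncertain. Of the macrophage markers 5 were up-regulated, with Aif1 (log2 fold change 2.04) and Adgre1 (1.89, encoding F4/80) ahead, and 4 were down-regulated, with Mrc1 (-2.38, the mannose receptor) ahead. Of 13 stromal markers tested, Kitl (stem cell factor) alone was called, at -1.39. For comparison, 8.9% of all tested genes were up- and 9.2% down-regulated. Endothelial, granulocyte and lymphoid marker sums stayed at or below 59.8 FPKM in every library, and Cd3e, Cd3d, Cd79a and Nkg7, which define lymphoid cells, and Ly6g, which defines neutrophils, had at most 3 counts in each library. Other markers of these lists were detected. Of the endothelial markers 7 were tested, with 1 up and 3 down, and of the granulocyte markers 8, with 1 up (Camp, 3.02, at most 4.66 FPKM) and 0 down. Of the lymphoid markers 3 were tested, with Cd79b up (1.75, at most 3.66 FPKM) and Cd4 down (-1.31, at most 4.02 FPKM). The fold of Cd4 dropped under the threshold without TgAPPsweOCN replicate 1 (-0.97). The part of differing cell make-up in the results below was not tested.

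Of the 6 tested members, Marco and Cd5l differed most between the genotypes. Marco rose 44.6-fold and Cd5l 17.9-fold in TgAPPsweOCN cells, Msr1 rose 1.66-fold, and Scarb1, Lrp1 and Colec12 fell by 1.69-, 1.47- and 1.43-fold. These folds come from edgeR with TMM factors, which adjust the scaling beyond library depth. The factors were 1.07 to 1.08 in control and 0.910 to 0.944 in TgAPPsweOCN libraries. FPKM values carry no such factor, so ratios of the FPKM levels below differ from the fitted folds. Olr1 was close to 0 in every library and was removed by the filter on low counts before the test. Genes were called up- or down-regulated, by the thresholds of the study, at an adjusted p of 0.05 or less (edgeR quasi-likelihood test, Benjamini-Hochberg over 12701 tested genes) with an absolute log2 fold change of 1 or more. On both thresholds 2 of the 6 tested members, Marco and Cd5l, were up-regulated and 0 were down-regulated, against 8.9% of all tested genes up and 9.2% down. On adjusted p alone 3 members were raised and 3 lowered, against 32.5% and 31.5% of all tested genes. The median log2 fold change of the tested members was 0.11, and that of all tested genes was -0.02. In bulk RNA, fewer cells of a type and less RNA per cell cannot be told apart.

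**Figure D1:**
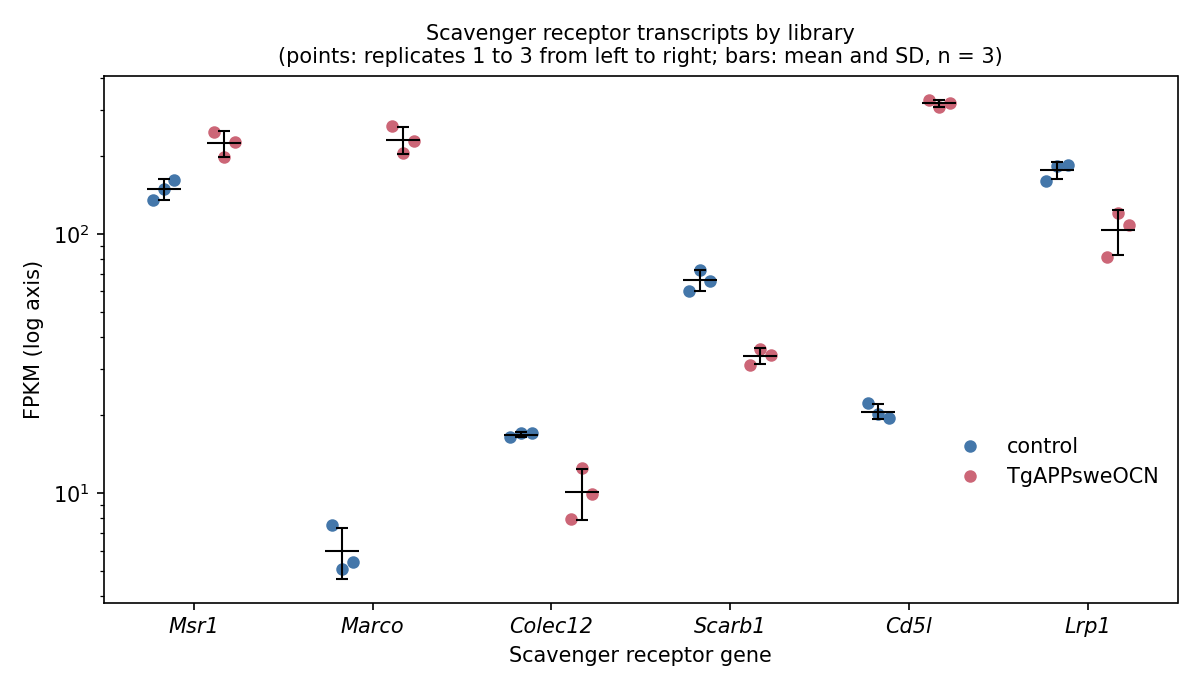
Level of each tested scavenger receptor gene (FPKM, log axis) in the 3 control and 3 TgAPPsweOCN libraries, with the mean and SD of each group (n = 3). Marco and Cd5l sit at 5.08 to 7.53 and 19.52 to 22.19 FPKM in control and at 204.67 to 260.0 and 308.09 to 328.29 in TgAPPsweOCN libraries. Olr1, at or below 0.08 FPKM, is not drawn.

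Msr1 encodes the class A macrophage scavenger receptor SR-A, a collagen-like trimer that binds modified LDL and fibrillar amyloid-β. The gene (Entrez 20288) spans chr8:39543232-39642750 on GRCm38, the mouse build also called mm10. Its level was 135.04, 149.17 and 161.78 FPKM for the 3 control replicates and 247.51, 197.89 and 224.91 for those of TgAPPsweOCN. Every TgAPPsweOCN library was above every control library, but the change stayed under the fold threshold. The means were 149 ± 13.4 and 223 ± 24.8 FPKM (SD, n = 3), and the log2 fold change was 0.73 (SE 0.115, edgeR adjusted p = 0.000582).

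Marco encodes the second class A receptor measured here, which takes up bacteria and particles and is known from marginal zone and alveolar macrophages. It lies on the minus strand at chr1:120474538-120505024 (Entrez 17167). Control libraries held 7.53, 5.08 and 5.42 FPKM, resting on 283, 193 and 201 counts, and TgAPPsweOCN libraries 260.0, 204.67 and 227.79 FPKM, resting on 10996, 8593 and 9464 counts. The groups lay far apart, and the means rose from 6.01 ± 1.33 to 231 ± 27.8 FPKM (SD, n = 3). The log2 fold change was 5.48 (SE 0.171, edgeR adjusted p = 9.07e-08).

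Cd5l encodes the apoptosis inhibitor of macrophages, AIM, a secreted protein that macrophages make and that is known as a target of the oxysterol receptors LXR. It lies on the plus strand at chr3:87357881-87371074 (Entrez 11801). Control libraries held 22.19, 20.22 and 19.52 FPKM and TgAPPsweOCN libraries 328.29, 308.09 and 319.42. Its spread within a genotype was small, with means of 20.6 ± 1.38 and 319 ± 10.1 FPKM (SD, n = 3). The log2 fold change was 4.16 (SE 0.0778, edgeR adjusted p = 7.69e-09).

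The start regions of both induced genes are shown beside that of Lrp1, a widely expressed member that fell, since they differ in base composition. Each window covers 250 bases before to 50 bases after the start in RefSeq (GRCm38.p6), and capitals mark CG dinucleotides. The windows are chr1:120504975-120505274 (minus strand) for Marco, chr3:87357631-87357930 (plus strand) for Cd5l and chr10:127621099-127621398 (minus strand) for Lrp1.
Marco: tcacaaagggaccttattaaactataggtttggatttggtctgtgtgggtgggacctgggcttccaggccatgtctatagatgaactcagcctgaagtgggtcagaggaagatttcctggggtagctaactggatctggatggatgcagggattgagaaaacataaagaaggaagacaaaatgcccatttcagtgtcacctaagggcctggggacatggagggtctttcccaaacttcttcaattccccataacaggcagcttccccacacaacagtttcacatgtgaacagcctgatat
Cd5l: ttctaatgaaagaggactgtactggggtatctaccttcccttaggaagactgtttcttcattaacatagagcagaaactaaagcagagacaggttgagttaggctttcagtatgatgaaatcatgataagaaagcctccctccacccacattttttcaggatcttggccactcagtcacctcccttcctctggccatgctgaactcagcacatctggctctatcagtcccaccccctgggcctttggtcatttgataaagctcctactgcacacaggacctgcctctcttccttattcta
Lrp1: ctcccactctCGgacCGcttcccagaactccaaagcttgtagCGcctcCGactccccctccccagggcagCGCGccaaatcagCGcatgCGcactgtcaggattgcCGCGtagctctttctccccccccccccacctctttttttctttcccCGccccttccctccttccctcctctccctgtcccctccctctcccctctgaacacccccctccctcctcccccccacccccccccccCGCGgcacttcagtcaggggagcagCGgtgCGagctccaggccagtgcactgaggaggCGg
The Marco and Cd5l windows held 0 CG dinucleotides, as did 5.43% of 32851 windows of the same length, and the Lrp1 window held 16, a number reached by 33.0% of windows. The median window had 7. G and C made up 47.3%, 46.3% and 67.7% of the Marco, Cd5l and Lrp1 windows. Windows were also available for Olr1, at chr6:129507116-129507415 (minus strand, 7 CG dinucleotides), so that 4 of the 7 genes had one. Both strands were searched for AGGTCA, the element bound by nuclear receptors, held by 16.3% of all windows, and for its direct repeat with 4 bases between, the LXR arrangement, held by 0.0152%. TGANTCA (AP-1, 7.81%), GAGGAAGT (PU.1, 3.20%), GGGANTTTC (NF-κB, 1.11%) and TGACNNNGC (antioxidant response, 12.4%) were searched likewise. The Marco and Cd5l windows held none of these motifs. Olr1 held AGGTCA at position -175 and TGANTCA at -60 from the start, and Lrp1 held TGACNNNGC at -160 on the reverse strand.

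Scarb1 encodes SR-BI, the class B receptor that takes cholesteryl esters from HDL. The gene (Entrez 20778) spans chr5:125277087-125341094. Its level was 60.37, 72.66 and 65.68 FPKM in control and 31.24, 36.06 and 34.05 in TgAPPsweOCN libraries. All TgAPPsweOCN libraries were below all control libraries. The means fell from 66.2 ± 6.16 to 33.8 ± 2.42 FPKM (SD, n = 3), with a log2 fold change of -0.75 (SE 0.0778, edgeR adjusted p = 4.76e-05), under the fold threshold.

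Lrp1 binds apolipoprotein E, α2-macroglobulin and protease complexes, and also the APP protein. The gene (Entrez 16971) lies on the minus strand at chr10:127538157-127621148. Control libraries held 160.4, 183.13 and 183.65 FPKM, and TgAPPsweOCN libraries 81.25, 120.38 and 107.84. The TgAPPsweOCN libraries varied more among themselves, and replicate 1 was the lowest. The means were 176 ± 13.3 and 103 ± 19.98 FPKM (SD, n = 3), and the log2 fold change was -0.56 (SE 0.124, edgeR adjusted p = 0.00415).

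Colec12 encodes a class A member with a lectin domain, known from vascular and stromal cells. The gene has Entrez ID 140792, and its counts carried decimals in all 6 libraries, so part of its reads was shared with other genes and its values are uncertain. The levels were 16.42, 17.06 and 17 FPKM in control and 7.97, 12.5 and 9.93 in TgAPPsweOCN libraries. Replicate 1 was again the lowest of the TgAPPsweOCN libraries. The means were 16.8 ± 0.353 and 10.1 ± 2.27 FPKM (SD, n = 3), and the log2 fold change was -0.52 (SE 0.129, edgeR adjusted p = 0.00722).

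Olr1 (Entrez 108078, chr6:129479150-129507350) encodes LOX-1, a lectin-like receptor for oxidised LDL known from endothelium. Its 3 control libraries held 1, 0 and 1 counts and its TgAPPsweOCN libraries 3, 5 and 4. The summed counts, 2 of 58769380 and 12 of 65607480, gave a ratio of 5.37 with an exact 95% interval of 1.20 to 49.4 that covers counting error only. The level was near 0 in both genotypes.

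The FPKM ranges of the genotypes did not overlap for any of the 7 genes. Of all tested genes, 24% had non-overlapping ranges with TgAPPsweOCN higher and 48.3% with TgAPPsweOCN lower, so separation in itself was common. An exact permutation test of FPKM per gene gave p = 0.1 (two-sided), the smallest that 3 against 3 libraries allow. The order of the levels changed between genotypes. In control, Lrp1 and Msr1 were highest, with overlapping ranges, followed by Scarb1, Cd5l, Colec12 and Marco, which did not overlap their neighbours. In TgAPPsweOCN, Cd5l was highest, ahead of Marco and Msr1, whose ranges overlapped, and then Lrp1, Scarb1 and Colec12. Marco lay above 51.3% of expressed genes in control and above 98.0% in TgAPPsweOCN, and Cd5l above 76.0% and 98.5%.

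**Figure D2:**
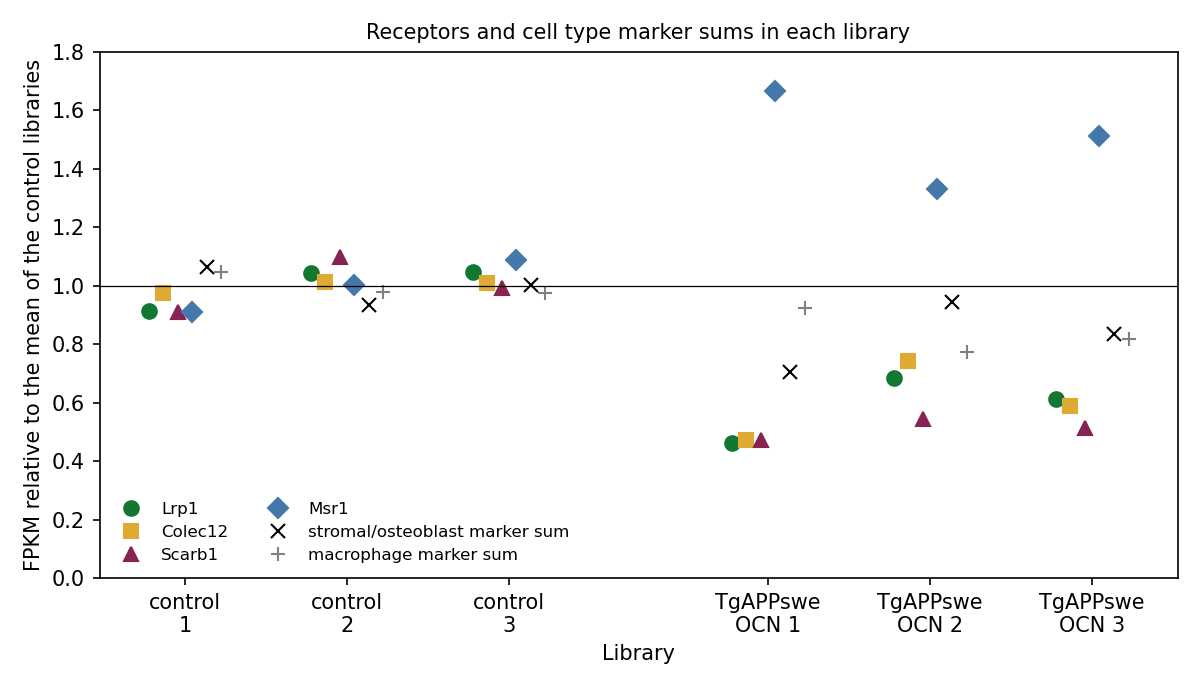
FPKM of Lrp1, Colec12, Scarb1 and Msr1, and the summed FPKM of 15 stromal and 15 macrophage markers, in each library relative to the control mean. In the TgAPPsweOCN libraries Lrp1 stood at 0.462, 0.685 and 0.614 and the stromal sum at 0.706, 0.945 and 0.833. These values are scaled to library depth alone, without the TMM factors of the edgeR fit.

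Lrp1, Colec12 and Scarb1 had their lowest TgAPPsweOCN value in replicate 1 and their highest in replicate 2. The summed stromal marker level followed the same order over those 3 libraries, at 0.706, 0.945 and 0.833 of the control mean, and the median stromal marker stood at 1.47, 2.56 and 2.11 FPKM in replicates 1, 2 and 3. Single stromal markers differed in this: Cxcl12 followed the order, at 27.02, 63.4 and 44.1 FPKM, while Sparc was highest in replicate 1 and lowest in replicate 2, at 58.17, 52.37 and 53.88 FPKM. Msr1, Marco and Cd5l were highest in replicate 1 and lowest in replicate 2, as was the summed macrophage marker level, at 0.925, 0.772 and 0.818 of the control mean. Lyz2, whose counts were fractional in all 6 libraries, made up the largest share of that sum, at 8724, 5379 and 6830 FPKM, and the median macrophage marker had another order, at 485.93, 507.66 and 472.1 FPKM, with replicate 2 highest. The part of these marker levels in the receptor differences was not tested. FPKM sums, scaled to library depth alone, were lower for macrophage markers in every TgAPPsweOCN library than in any control library. In the fit, which also uses TMM factors, the median log2 fold change was -0.16 for macrophage and -0.12 for stromal markers. That of all tested genes was -0.02.

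Among 18 other scavenger receptors, 16 were tested, with 1 up and 7 down, against 8.9% and 9.2% of all tested genes. The call in the upward direction was Cd36, the class B fatty acid and oxidised LDL receptor, at 112.63, 141.59 and 135.59 FPKM in control and 269.28, 192.83 and 228.35 in TgAPPsweOCN libraries. Its log2 fold change was 1.05 (SE 0.138, edgeR adjusted p = 0.000202), but it fell below the fold threshold without control replicate 1 (0.95) or TgAPPsweOCN replicate 1 (0.90), and on library size alone (0.83). Down-regulated were 7 genes. Clec7a, the β-glucan receptor Dectin-1, fell the furthest, from 56.2 ± 10.8 to 7.25 ± 0.361 FPKM (SD, n = 3; log2 fold change -2.74, SE 0.142, adjusted p = 9.81e-07), followed by Mrc1 (-2.38) and the haemoglobin receptor Cd163 (-2.18). Stab1 and Stab2, receptors for extracellular matrix fragments, stood at -1.58 and -1.97, Cd68 at -1.26 and the lysosomal Scarb2 at -1.005. The Scarb2 call lay at the edge of the fold threshold and was lost with RLE size factors in edgeR or with DESeq2 (-0.995 in both) and without control replicate 2, TgAPPsweOCN replicate 2 or TgAPPsweOCN replicate 3 (-0.999 to -0.998). Stab2 is also one of the endothelial markers, and Cd68 and Mrc1 are macrophage markers. On adjusted p alone Scarf1 (0.61), Scarf2 (0.63) and the hyaluronan receptor Cd44 (0.70) were raised, though Scarf2 missed the threshold with limma on either FPKM scale (adjusted p = 0.0535 in both), and 5 genes did not pass. The median log2 fold change of the list was -0.49.

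**Figure D3:**
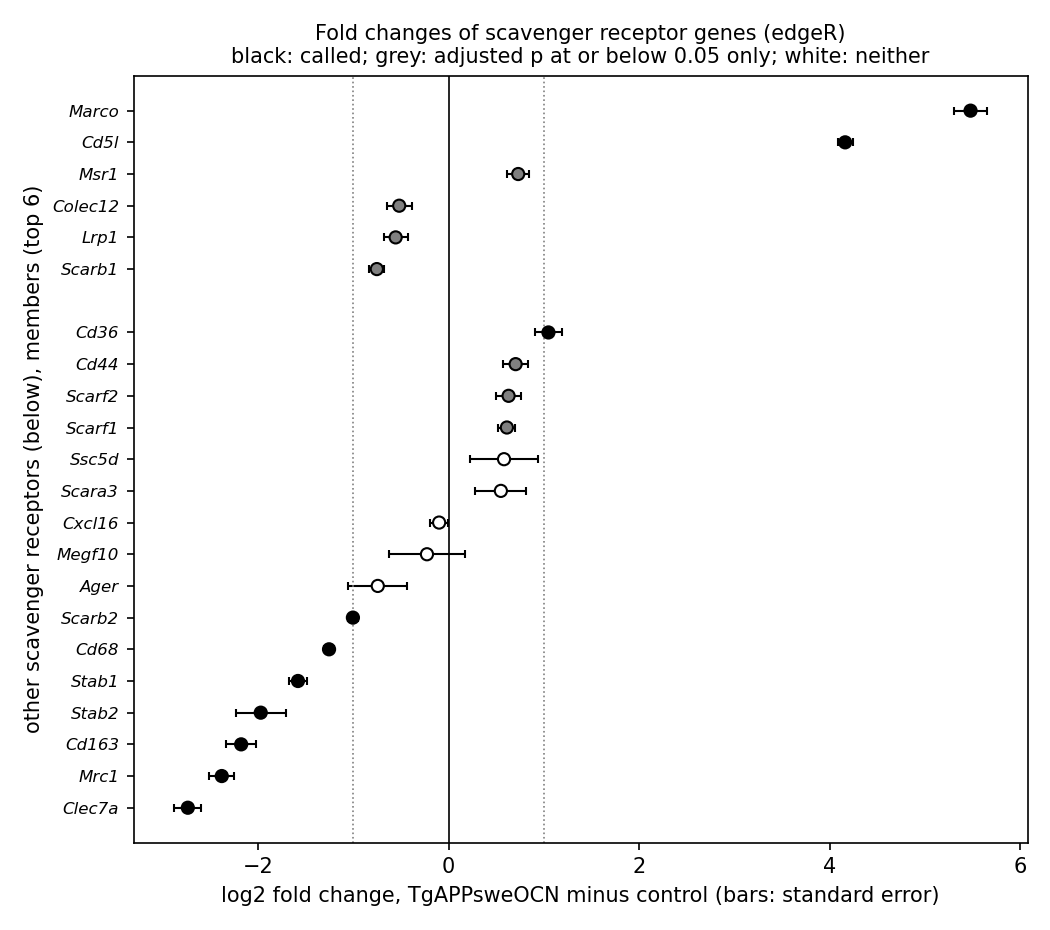
Log2 fold change (TgAPPsweOCN minus control, with SE, edgeR) of the 6 tested members above and of 16 other scavenger receptors below. Dotted lines mark the fold threshold, black points are called, grey points pass adjusted p alone and white points pass neither. Marco (5.48) and Cd5l (4.16) lie far to the right of Cd36 (1.05), and Clec7a (-2.74) is the lowest.

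Of the genes of the LDL receptor family and the partners of Lrp1, 21 of 23 were tested, and 1 was up- and 2 were down-regulated. These shares lie near or under those of all tested genes, 8.9% up and 9.2% down. Lrp11 rose from 2.06 ± 0.0306 to 4.74 ± 0.185 FPKM (SD, n = 3; log2 fold change 1.41). Dab2, an endocytic adaptor that binds the tails of LDL receptor family members, held 443.47, 424.8 and 448.03 FPKM in control and 110.96, 139.76 and 125.25 in TgAPPsweOCN libraries (log2 fold change -1.58, SE 0.0793, edgeR adjusted p = 8.47e-07). Sorl1, a sorting receptor of APP, stood at -1.23. On adjusted p alone the chaperone Lrpap1 (0.53), the sheddase Adam17 (0.52) and the adaptor Shc1 (0.46) were among 4 raised genes, and Lrp6 (-0.79), the protease Furin (-0.64), which cleaves the Lrp1 precursor, and Lrp5 (-0.36) among 5 lowered. The median of the list was -0.19. Lrp2 and Lrp1b were near 0.

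Of 23 genes of ligands and lipoprotein handling, 18 were tested, with 1 up and 5 down, against 8.9% and 9.2% of all tested genes. Abcg1, which exports cholesterol to HDL and is a known LXR target, rose from 11.99, 12.63 and 11.81 to 30.48, 34.11 and 33.07 FPKM (log2 fold change 1.64, SE 0.0583, edgeR adjusted p = 1.72e-07). Apoe, a ligand of Lrp1 and also a known LXR target, had the deepest fall, from a range of 12437 to 15068 FPKM to one of 2342 to 2630 (log2 fold change -2.23, SE 0.0919, adjusted p = 3.12e-07). Plau (urokinase), whose complexes Lrp1 clears, stood at -1.78, the lysosomal lipase Lipa at -1.32 and Lcat at -1.24. The Lcat call rested on levels at or below 1.01 FPKM (adjusted p = 0.0360), and leaving out 1 library took its adjusted p above the threshold for 4 of the 6 libraries, as did DESeq2 (adjusted p = 0.0681). On adjusted p alone Calr (0.81), the phospholipid transfer protein Pltp (0.76, a known LXR target with fractional counts in all 6 libraries) and Abca1 (0.41) were among 4 raised genes. Abca1, a further known LXR target, did not pass on library size scaling (0.20) or with limma on either FPKM scale (0.19 in both). Its FPKM ranges overlapped between the genotypes. Lpl (lipoprotein lipase, -0.06, adjusted p = 0.685), known as an LXR target too, did not pass the test. The median of the list was -0.29.

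Of 20 transcription factors known to act on the members, 18 were tested, with 4 up and 3 down, against 8.9% and 9.2% of all tested genes. Ets2 (log2 fold change 2.57) and Spic (2.36), a factor of red pulp macrophages, rose the furthest. Spic held 7.24, 5.44 and 7.08 FPKM in control and 25.07, 34.8 and 27.73 in TgAPPsweOCN libraries. Nr1h3, which encodes LXRα, rose from 19.08, 20.18 and 20.48 to 68.38, 64.51 and 67.09 FPKM (log2 fold change 1.97, SE 0.0626, edgeR adjusted p = 9.99e-08). The second LXR gene, Nr1h2, and the shared partner Rxra were lowered on adjusted p alone, at -0.23 and -0.86, though Nr1h2 no longer passed without TgAPPsweOCN replicate 2 (edgeR adjusted p = 0.0604) or replicate 3 (0.0555). Srebf1, the lipogenic factor known to be induced by LXR, did not pass the test (0.07, edgeR adjusted p = 0.354) and had the opposite sign on library size alone (-0.14). Fos (-1.60) and the lipid receptor Pparg (-1.16), known to induce Cd36, were among the down-regulated factors, and the macrophage factors Spi1 (0.54) and Maf (0.81) were raised under the fold threshold. The median of the list was -0.09.

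**Figure D4:**
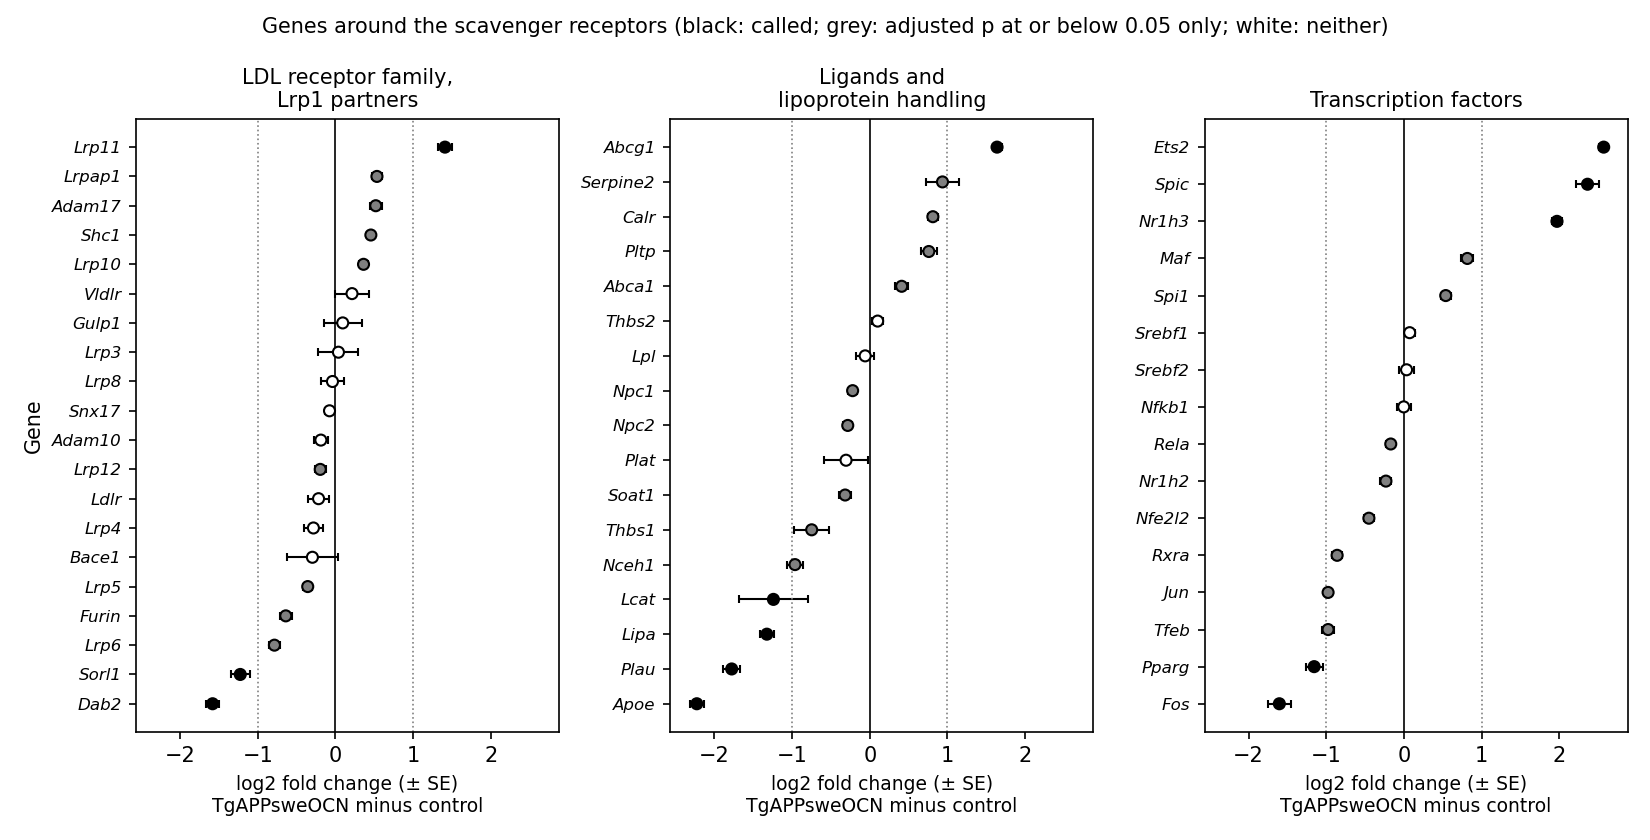
Log2 fold change (TgAPPsweOCN minus control, with SE, edgeR) of the tested genes of the LDL receptor family and Lrp1 partners, of ligands and lipoprotein handling, and of transcription factors. Black points are called, grey points pass adjusted p alone and white points pass neither. A few tested genes of these lists are not drawn. Of those drawn, Ets2 (2.57) is the highest and Apoe (-2.23) the lowest.

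The genes most like each member were those with the shortest Euclidean distance between log2 CPM values over the 6 libraries, each centred on its mean, a description with no test. For Marco these were Cd300e (0.232), Morc4 (0.557) and Fgl2 (0.607), and for Cd5l Tmtc4 (0.173), Rims3 (0.224) and Adgrg6 (0.270). For Msr1 they were Mpp6 (0.0757), Ghitm (0.0804) and Pgm2l1 (0.109). For Scarb1 they were Etv3 (0.0688), Snx9 (0.0800) and Spc25 (0.0887), for Colec12 Gnpda1 (0.121), Kirrel (0.132) and Cnrip1 (0.132), and for Lrp1 Mr1 (0.108), Ahnak2 (0.126) and Fryl (0.133).

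The scaling of the libraries moved all genes together. Where only library size was used, the centre of the tested genes shifted on the log2 scale, from a median of -0.02 to -0.23, and calls went from 1130 up and 1169 down to 846 up and 1732 down. None of the 6 tested members changed sign or crossed the adjusted p threshold under the alternatives run. Their values on library size alone were 5.26 for Marco, 3.95 for Cd5l, 0.51 for Msr1, -0.97 for Scarb1, -0.77 for Lrp1 and -0.73 for Colec12.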

How the data were processed

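RNA of sorted tdTomato+ cultured BMSCs was sequenced on DNBSEQ, 3 libraries per genotype. The authors removed low-quality, adaptor and rRNA reads and mapped with HISAT2. The submitters' processing notes name mm10, HISAT2 2.0.4, Bowtie2 2.2.5, RSEM 1.2.12 and DESeq2 1.4.5. The deposited table gives estimated counts, 13.3% to 14.4% of genes with decimals per library, and the authors' FPKM values, which were used for levels. A second deposited table, with the authors' own log ratios and p-values, was not used.

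Estimated counts were rounded, filtered with filterByExpr, scaled by TMM and tested with edgeR 4.0.16 (R 4.3.3), quasi-likelihood, without covariates, with Benjamini-Hochberg adjustment. Depth was 19340810 to 22037840 counts a library, and the biological coefficient of variation was 9.85%. Scripts were tested on simulated data. Alternatives used limma 3.58.1 (log2 of FPKM plus 1 or 0.1), DESeq2 1.42.0, other scaling and filters, and each library left out. Library pairs of a genotype differed by 2.45 to 5.67 times sampling noise, so none was counted as a duplicate.

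Members and lists were chosen with earlier results of these data known. In each list the 3 called genes of largest change with at least 10 counts in every library were named by rule. Genes of the 3 short marker lists, which the rule also names, were given mostly as sums and counts. Cd36, Stab1, Stab2, Cd68, Scarb2, Scarf1, Scarf2, Cd44, Nr1h3, Nr1h2, Rxra, Fos, Pparg, Spi1, Maf, Lipa, Lcat, Lpl, Srebf1, Cxcl12, Calr, Pltp, Abca1, Lrpap1, Adam17, Shc1, Lrp5, Lrp6 and Furin were named after their values were seen. Some genes of the lists are counted but not reported by name here. Gene coordinates and start regions came from RefSeq (GRCm38.p6).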

Additional observations from a re-analysis of the deposited data

How the results depend on the processing

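The log2 fold changes of the 6 tested members kept their direction and their side of the adjusted p threshold under the 14 alternatives that give one. Without 1 library at a time, they ran from 5.37 to 5.67 for Marco, 4.11 to 4.21 for Cd5l, 0.60 to 0.85 for Msr1, -0.82 to -0.69 for Scarb1, -0.66 to -0.42 for Lrp1 and -0.68 to -0.38 for Colec12. Without a fold threshold 3 members were down-regulated, other scavenger receptors had 4 up, the LDL receptor list 5 up and 7 down, the ligand list 5 up and 10 down, the transcription factors 9 down, and all genes 4122 up and 4007 down. On library size alone other scavenger receptors had 0 up, the LDL receptor list 4 down and the transcription factors 6 down. With limma on log2(FPKM + 1), other scavenger receptors and the LDL receptor list had 0 up, the transcription factors 6 down and all genes 593 up, and with log2(FPKM + 0.1) other scavenger receptors had 0 up and the transcription factors 6 down. Leaving out 1 library gave 0 to 1 up among other scavenger receptors (0 without control replicate 1 or TgAPPsweOCN replicate 1), 1 to 2 up among ligands (2 without either of those libraries) and 3 to 5 down among transcription factors (5 without control replicate 3). With log2(FPKM + 1), where the pseudocount shrinks low genes, Lrp11 (0.91), Stab2 (-0.30) and Lcat (-0.49) fell short of the fold threshold. Of genes not past the test, Lpl ran from -0.17 (without TgAPPsweOCN replicate 2) to 0.046 (without TgAPPsweOCN replicate 1) as 1 library was left out, and Srebf1 to -0.14 on library size alone and with limma on either scale. Apart from the scaling and the threshold, which act by construction, the cause was not tested.

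Replicate numbers gave no clear pairing of the libraries: the correlations of same-numbered deviations were 0.0127, 0.00664 and 0.141, and 1 of 3 control libraries correlated best with its own number. The value of 0.141, for replicate 3, was the largest of all pairs. With 3 libraries per genotype such correlations can neither show nor exclude a pairing. A replicate block gave 1115 up and 1147 down over all genes, with 5.49 for Marco, 4.16 for Cd5l, 0.72 for Msr1, -0.75 for Scarb1, -0.57 for Lrp1 and -0.54 for Colec12, and took the adjusted p of Lcat to 0.0651. The filter on low counts removed Olr1. With no filter beyond 1 count, its fitted log2 fold change was 2.43 (edgeR adjusted p = 0.0441), which made 3 members up-regulated, a value that rests on 14 counts in all.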
